A study of Drosophila melanogaster with 3 samples.

Results

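The peaks described here are the heterochromatin protein 1 (HP1) peaks at the centromeric end of chromosome arm 2L of Drosophila melanogaster and on 2LHet, a separately assembled sequence of the heterochromatin of the same arm. They were chosen by position alone: every 2L peak with a midpoint at or above 20 Mb, and every peak on 2LHet. The rule took in 350 peaks on 2L and 141 on 2LHet, together 491 of the 15755 peaks in the authors' list, or 3.12%. The last 2L peak left out ran from 19702590 to 19702929 with a score of 15.12, and the first taken in from 20007514 to 20008181 with a score of 11.83. All positions are on FlyBase release 5 and count from 1.

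The series mapped HP1 by chromatin immunoprecipitation and sequencing (ChIP-seq) in whole embryos 8 to 16 h old, with 1 input DNA sample and 2 ChIP replicates. All 3 came from the strain labelled Y cn bw sp. Its listed alleles begin with y[1] and oc[R3.2], followed after a semicolon by Gr22b[1], Gr22d[1], cn[1], then CG33964[R4.2], bw[1] and also sp[1]. The last group of alleles is LysC[1], lab[R4.2], then MstProx[1], GstD5[1] and finally Rh6[1]. The antibody was an affinity-purified rabbit polyclonal raised against recombinant full-length fly HP1. Whole embryos mix all cell types, so a peak does not say in which cells HP1 was bound. The files hold 1 list of peaks that does not name the replicate behind a peak, and how deeply each sample was sequenced is unknown. No value below therefore has an error between replicates, and no difference below was tested. An uncovered stretch is a stretch without a called peak. The list cannot tell missing signal from sequence on which reads could not be placed.

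HP1 is a structural protein of heterochromatin, the compact and repeat-rich chromatin around centromeres. It reads a methyl mark on a histone tail through its chromodomain and can bind another HP1 molecule, so that it can coat long stretches of chromatin. At the base of a fly chromosome arm, gene-rich euchromatin gives way to pericentric heterochromatin, and genes moved next to that boundary can be silenced in some cells. Isolated repeat-rich islands are also known within the arms, among them piRNA clusters, the source loci of the small RNAs that silence transposons. Inner 2L is known to carry such clusters. The list holds no annotation of genes or repeats, so what lies under each peak was not measured.

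HP1 peaks on inner 2L went from scattered to dense over about 100 kb. In 100 kb bins, all 9 bins from 22.1 Mb to the end of the last peak, at 22985250, had at least 10% of their bases under peaks, which sets the arm limit at 22.1 Mb. The 885250 bp inside this limit held 299 peaks and had 50.9% of bases covered. The 2.1 Mb outside it held 51 peaks and had 2.13% covered, a ratio of 23.9 between the covered shares. The limit was set on the coverage of these same bins, so a higher share inside it follows in part from the cut. Inside the limit lay 85.4% of the inner 2L peaks and 91.0% of their bases. Most of the window named as pericentric was therefore sparse: 13 of its 21 bins outside the limit held no peak.

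**Figure D1:**
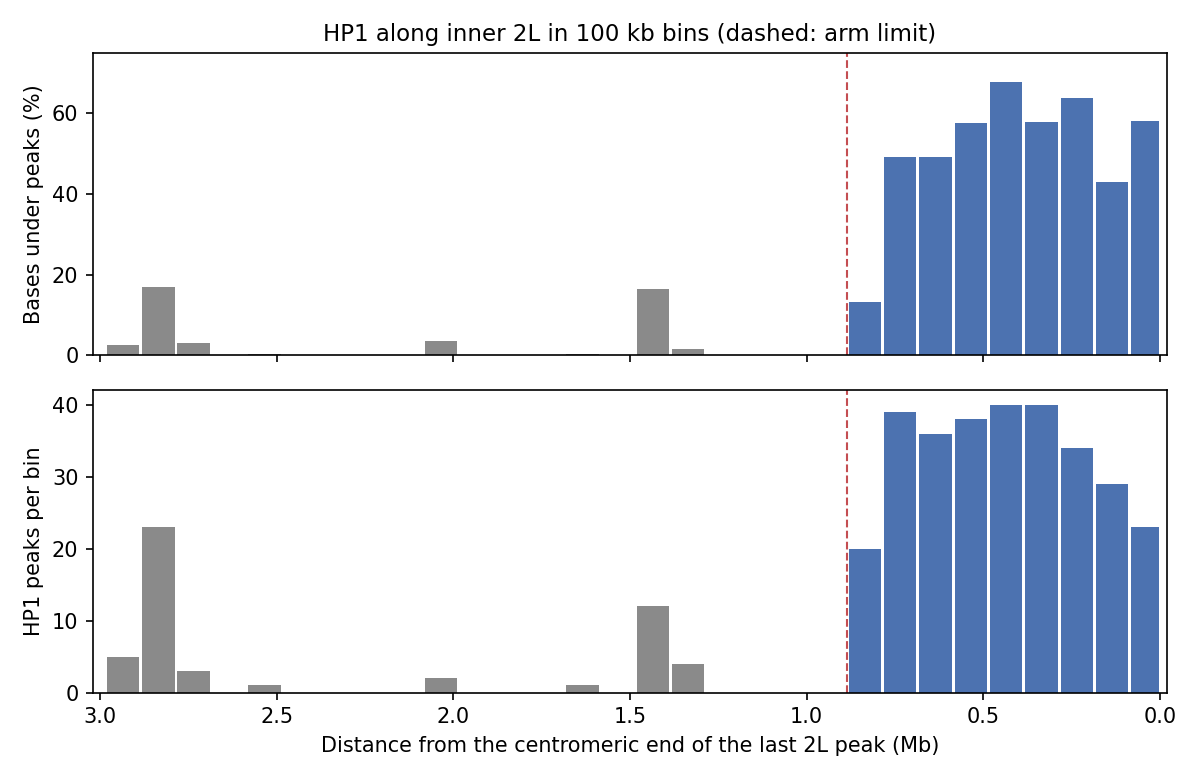
HP1 peaks along inner 2L in bins of 100 kb, with distance from the centromeric end of the last peak in Mb on the horizontal axis. Upper bars give the percent of bases under peaks and lower bars the number of peaks, grey outside and blue inside the arm limit (dashed line). Coverage stays at or below 17.0% in every grey bin and reaches 43.0% to 67.7% in the blue bins after the first.

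The approach to the limit was empty. The last peak outside it ended at 21655870, and the next 462506 bp held none. The first peaks inside were 334, 295 and 374 bp wide, with scores of 17.72, 17.28 and 13.40. They were followed by gaps of 2055, 41335 and 8443 bp. From 22171213 on, 18 peaks lay in a chain of 30174 bp, where a chain joins neighbours with gaps under 5 kb. Their highest score was 45.34, and they covered 43.1% of the chain. The first domain of at least 10 kb, which joins peaks with gaps of at most 1 kb, began at 22220626. It ran for 19188 bp, held 9 peaks with a highest score of 103.64, and was 92.7% covered. The rise from the first small peak to this domain thus took about 100 kb.

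In bins, the same step appeared as 20 peaks and 13.1% of bases covered from 22.1 Mb, followed by 39 peaks and 49.3% in the next bin. The 8 bins after the first held 23 to 40 peaks each and were 43.0% to 67.7% covered. The first bin also had the smallest peaks of the block. Its median width was 471.5 bp and its median score 13.875, against 643 to 1005 bp and 20.25 to 33.19 in the bins that followed.

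Inside the limit, the outer part of the block was less covered than the rest. Cut into 3 parts of about 295 kb each, the block was 37.3% covered in its outer part, 60.0% in the middle and 55.0% in the part nearest the centromere. Median peak width was 646, 774 and 847.5 bp in the same order, and the median score 20.01, 24.845 and 27.735. Domains of at least 10 kb numbered 2, 8 and 6. Width and score were thus highest in the innermost part, while coverage and long domains were highest in the middle. The outer part takes in the first bin, which was 13.1% covered. The bins beginning at 22200001 and 22300001 were 49.3% and 49.1% covered. The bin beginning at 22800001, in the innermost part, was 43.0% covered.

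The longest chain, from 22508134 to 22639706, lay in the middle of the block. It joined 63 peaks over 131573 bp and was 72.2% covered. The 21 chains of the block included 3 others with at least 20 peaks. They ran from 22335894 to 22396456 with 26 peaks, from 22677483 to 22736384 with 20, and from 22921761 to the last base under a peak with 20. The last of these chains ends with the list, so its length may be cut off.

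Inside the limit, the 299 peaks formed 95 domains with a median length of 3490 bp (quartiles 709 and 6658.5 bp), and 33 of them were single peaks. The median depends on the joining distance and was 1560 bp with 0.5 kb and 6947 bp with 2 kb. The 16 domains of at least 10 kb held 56.6% of all domain bases. They were 76.6% to 97.9% covered and were built of 2 to 17 peaks. The domain length at which the bases of longer and shorter domains balance was 12974 bp. At the other end, 29 domains under 1 kb held 2.64% of domain bases.

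The 5 longest domains were spread along the block, but the longest and the one from 22538295 shared the longest chain. The longest, from 22579811 to 22607588, spanned 27778 bp with 17 peaks and a highest score of 73.47, and was 83.4% covered. The next, from 22369431 to 22396456, spanned 27026 bp with 11 peaks and was 95.2% covered, with a highest score of 100.14. The last domain of the arm, from 22962587 to 22985250, spanned 22664 bp with 7 peaks. Domains from 22538295 to 22558574 and from 22750303 to 22770179 spanned 20280 and 19877 bp. Long domains therefore differed in build, from many moderate peaks to a few broad ones.

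The 20 highest scores of inner 2L all lay inside the limit, as did 48 of the 50 highest and 85.4% of all inner 2L peaks. The top 2 were neighbours in the last domain of the arm: a peak from 22962587 to 22967979 with a score of 168.48, and one from 22969290 to 22975049 with 167.72. The third, at 160.72, was also the widest peak, with 14203 bp from 22482052 to 22496254. Scores of 133.35 and 128.32 followed, from 22258254 to 22263317 and from 22758863 to 22767639. Other wide peaks were 10871 bp from 22699716, with a score of 83.32, 9523 bp from 22546619, with 123.13, and 9346 bp from 22220626, with 103.64. The 5 highest-scoring peaks were 5064 to 14203 bp wide and stood at 4 places along the block.

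**Figure D2:**
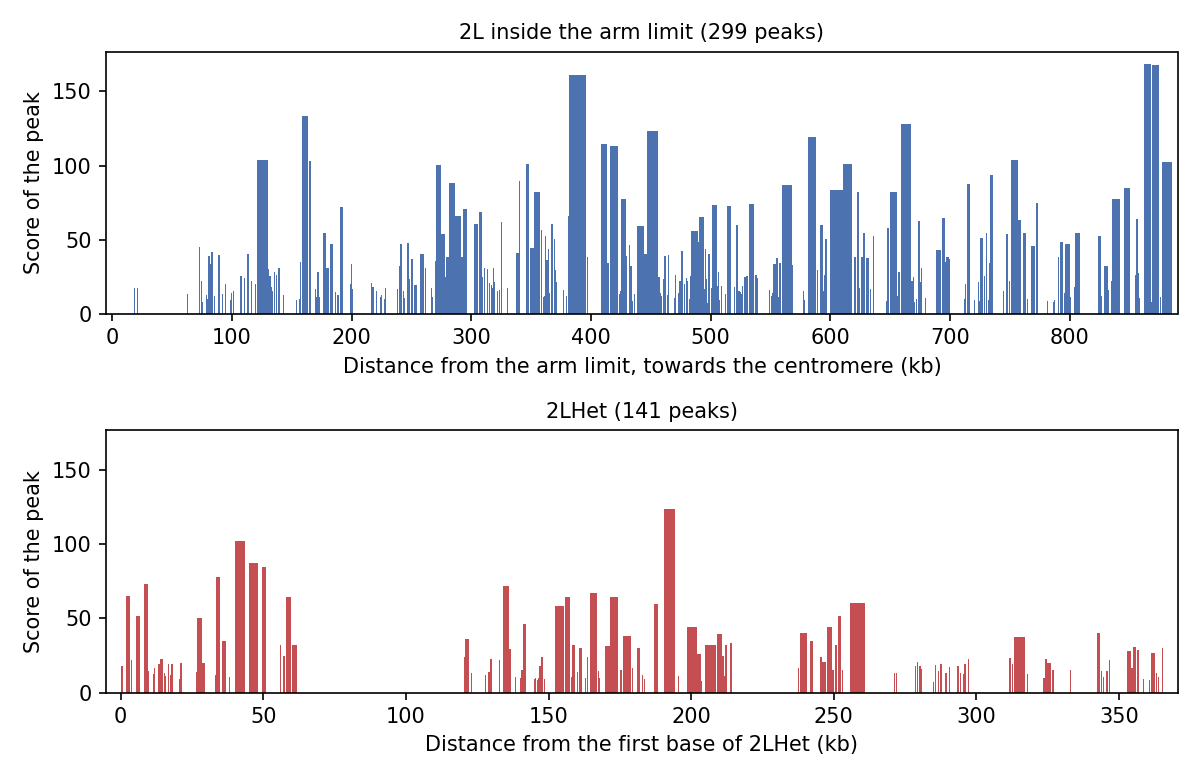
Each bar is 1 HP1 peak, its height the authors' score and its width the peak's width, with narrow peaks widened to a fixed least width so that they show. The upper map covers 2L inside the arm limit by distance from the limit in kb, the lower 2LHet by distance from its first base in kb. The 2L block is dense after a sparse start, while 2LHet has an empty stretch of 58471 bp.

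The gaps inside the limit were short. Their median was 454.5 bp (quartiles 185.25 and 1373.75 bp), and 52.3% were under 500 bp. Short gaps were not particular to this block. On 2L below 20 Mb the median was 582 bp and 44.0% were under 500 bp, although 38.8% reached 20 kb. Inside the limit, gaps of 20 kb or more numbered 1, the stretch of 41335 bp from 22121061 to 22162395 at the very edge. The next longest were 15673 bp from 22300448, 12965 bp from 22908796, 10666 bp from 22242984 and 10477 bp from 22736385. Outside the limit the median gap was 1435.5 bp, and 9 gaps reached 20 kb, not counting the empty stretch of 462506 bp from 21655871 that crosses the limit. The longest of the 9 measured 567453 bp from 20409845, 365209 bp from 20980812, 198328 bp from 21346275 and 127229 bp from 20282270, so the 5 longest gaps of inner 2L all lay at or outside the limit. The shortest gap on 2L and on 2LHet was 45 bp, so neighbours closer than that do not occur in this part of the list.

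The dense block near 20.1 Mb was an island of many small peaks about 2 Mb outside the limit. The bin from 20.1 Mb held 23 peaks and was 17.0% covered. It was picked for having the most peaks of the 221 bins of 2L outside the limit, telomeric end included. Its rank of 1 by number of peaks was thus fixed by that choice. By covered bases it also ranked 1, with 7436 of its 16997 bp under a single peak. The bin from 21.5 Mb came next by covered bases, with 12 peaks and 16.5%. Of the 221 bins, 165 held no peak. Coverage of the 20.1 Mb bin was thus above that of the first bin inside the limit, at 13.1%, and below the 43.0% to 67.7% of the other 8.

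With neighbours joined up to 50 kb, the outer stretch ran from 20085502 to 20218165, 132664 bp with 26 peaks and 15.6% of bases covered. It fell into chains of unlike make-up. The chain with most peaks, from 20175952 to 20196279, held 14 peaks spread over 20328 bp. They were 204 to 684 bp wide with a median of 333.5 bp, and 13 of them were under 500 bp. Their scores lay between 7.35 and 29.96, the median being 12.965, and none reached the upper quartile of the whole list, 34.59. They covered 24.8% of the chain, at gaps with a median of 1305 bp. The count rests on small peaks and on the joining distance: with 2 kb the largest chain held 7 peaks over 9460 bp, and among peaks with at least the list's median score it held 2 and was another chain, from 20104476 to 20117287.

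Farther out, the chain from 20101296 to 20119580 held 8 peaks and more covered bases, 10495 against 5033 bp. It contained the widest peak of the outer stretch, 7436 bp from 20104476 to 20111911 with a score of 49.50, which alone made up 35.9% of the covered bases of the stretch. This peak was the only one outside the limit among the 8 widest of inner 2L. A pair at the inner edge of the stretch held the highest score there, 52.37, in a peak of 2642 bp from 20215524 to 20218165. The remaining peaks stood alone, from 20085502 to 20086349 with a score of 34.02 and from 20150218 to 20151686 with 32.56. Of the 26 peaks of the outer stretch, 1 was at least 3 kb wide (3.85%). The share was 38 of 299 inside the limit (12.7%) and 4.96% on 2LHet. Elsewhere in the list it was 8.15% on 2L below 20 Mb and 10.9% in the last 2985250 bp of 3L. It was 7.37% on 2RHet, 9.68% on 3LHet and 8.09% on 3RHet.

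A second stretch, from 21544603 to 21655870, held 16 peaks and was 16.2% covered, close to the 15.6% of the outer stretch. Its peaks were larger, with a median width of 495.5 against 365.5 bp and a median score of 18.27 against 13.845. It held the highest score outside the limit, 64.20, in a peak of 1415 bp from 21557592 to 21559006. It also held the next widest peaks there, 4586 bp from 21545545 to 21550130 with a score of 55.01, and 4506 bp from 21591336 to 21595841 with 58.82. Both stretches together held 42 of the 51 peaks outside the limit and 86.7% of their covered bases.

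The other 9 peaks outside the limit were scattered. Of these, 4 lay from 20007514 to 20010522 with scores up to 11.83. A pair ran from 20977298 to 20980811, the outer peak with a score of 44.87 and a width of 2404 bp. Single peaks of 253, 346 and 254 bp began at 20282017, 20409499 and 21346021, with scores of 11.28, 11.73 and 10.77.

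**Figure D3:**
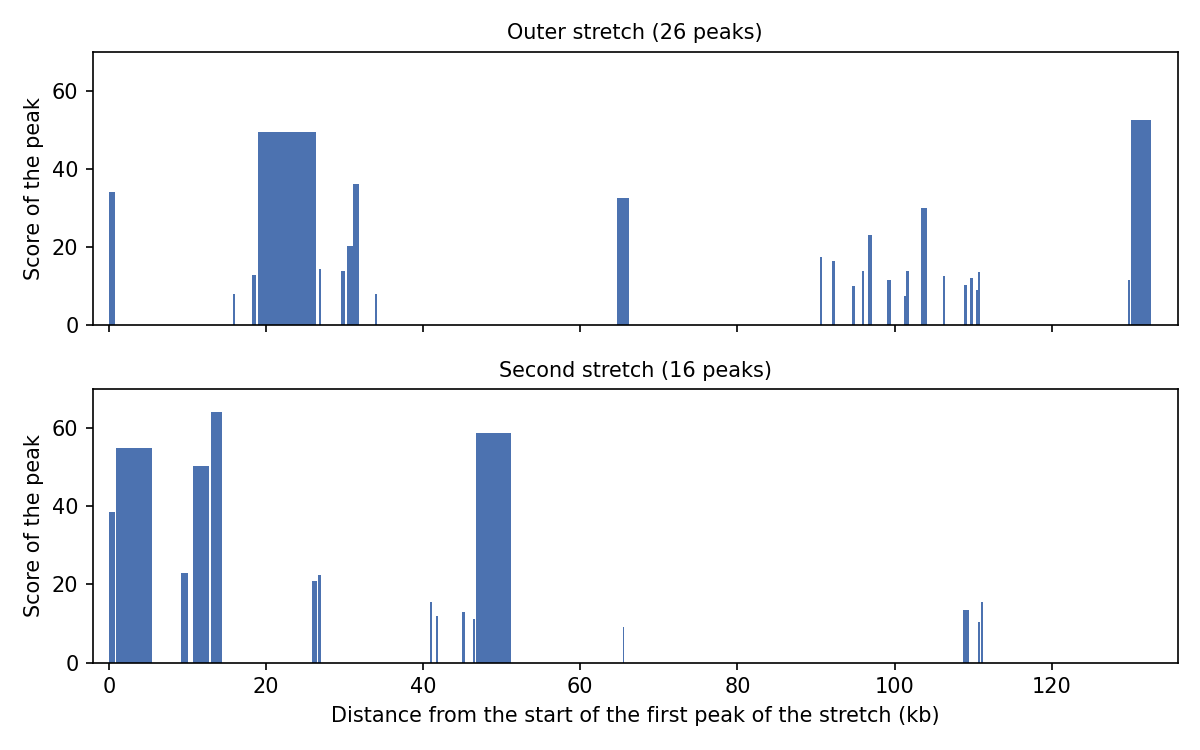
The 2 groups of HP1 peaks outside the arm limit, each bar a peak with its score as height and its width to scale, the narrowest widened to a fixed least width. The horizontal axis is the distance from the first peak of each stretch in kb. The outer stretch has 26 peaks, most of them low and narrow, and the second stretch 16, with 4 scores above 50.

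On 2LHet, 141 peaks covered 34.0% of the 365464 bp up to the end of the last peak. The first ran from 41 to 687 with a score of 18.17, and the last from 364953 to 365464 with 30.11. The number of peaks per Mb was higher than inside the limit on 2L, 385.8 against 337.8, with a lower covered share, 34.0% against 50.9%. The order of the peak numbers turned among peaks with at least the list's median score, with 166.9 per Mb on 2LHet against 192.0, and at the upper quartile, with 79.4 against 120.9. The order of the covered shares held under both score limits. The peaks of 2LHet were narrower than those inside the limit. Their median width was 514 against 773 bp and their median score 19.07 against 24.38. Over the whole list the median width was 503 bp and the median score 20.96, so 2LHet was near the list in both. Peaks of at least 3 kb made up 4.96% of those on 2LHet and 12.7% of those inside the limit. On 2RHet, 3LHet and 3RHet this share was 7.37% to 9.68%.

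Gaps of 20 kb or more split 2LHet into 3 parts. The first ran from 41 to 61780 with 31 peaks and was 46.6% covered. It held the scores ranked 2 to 6, from 102.31 in a peak from 40206 to 43686 down to 73.18 in one from 8262 to 9530. The longest gap, 58471 bp from 61781 to 120251, followed. The second part, from 120252 to 214238, was a single chain of 55 peaks over 93987 bp and was 54.7% covered. It held the highest score, 123.5, from 190574 to 194313, and the longest domain, 15675 bp from 152238 to 167912.

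The third part of 2LHet, from 237474 to 365464, also held 55 peaks but was 34.3% covered. Its first chain, up to 260903, had the widest peak of 2LHet, 5211 bp from 255693 to 260903 with a score of 60.41. After it, the 44 peaks from 271158 on had no score above 40.44 and a median of 16.18. The second-widest peak, 4184 bp from 312998 to 317181 with a score of 37.47, lay among them. The next widest were 3740 bp from 190574 and 3530 bp from 198475, both in the second part, and 3481 bp from 40206 in the first. The other long gaps of 2LHet measured 23235 bp from 214239, 10291 bp from 299542, 10254 bp from 260904 and 7027 bp from 333307. The list does not give the order or orientation of 2LHet relative to 2L, so these parts have no known distance from the centromere.

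Gaps and domains of 2LHet were set beside those of 2L inside the limit. Over all peaks, the median gap was 446 bp on 2LHet and 454.5 bp inside the limit, and the shares of gaps under 500 bp were 52.1% and 52.3%. This likeness was lost among peaks with at least the list's median score, where the median gaps were 1617.5 and 836 bp. The median domain was 2981 bp on 2LHet and 3490 bp inside the limit. Domains of at least 10 kb held 10.0% of domain bases on 2LHet, in 1 domain of 12 peaks, and 56.6% in 16 domains inside the limit. With a joining distance of 2 kb these shares were 49.1% and 88.0%, and with 0.5 kb 0 and 40.0%. On 2LHet, domains of 5 to 10 kb held 48.6% of domain bases, and the next longest after the first spanned 9823 bp from 169772 and 8183 bp from 245191. Domains of 7531 bp from 204852 and 6531 bp from 311547 followed.

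**Figure D4:**
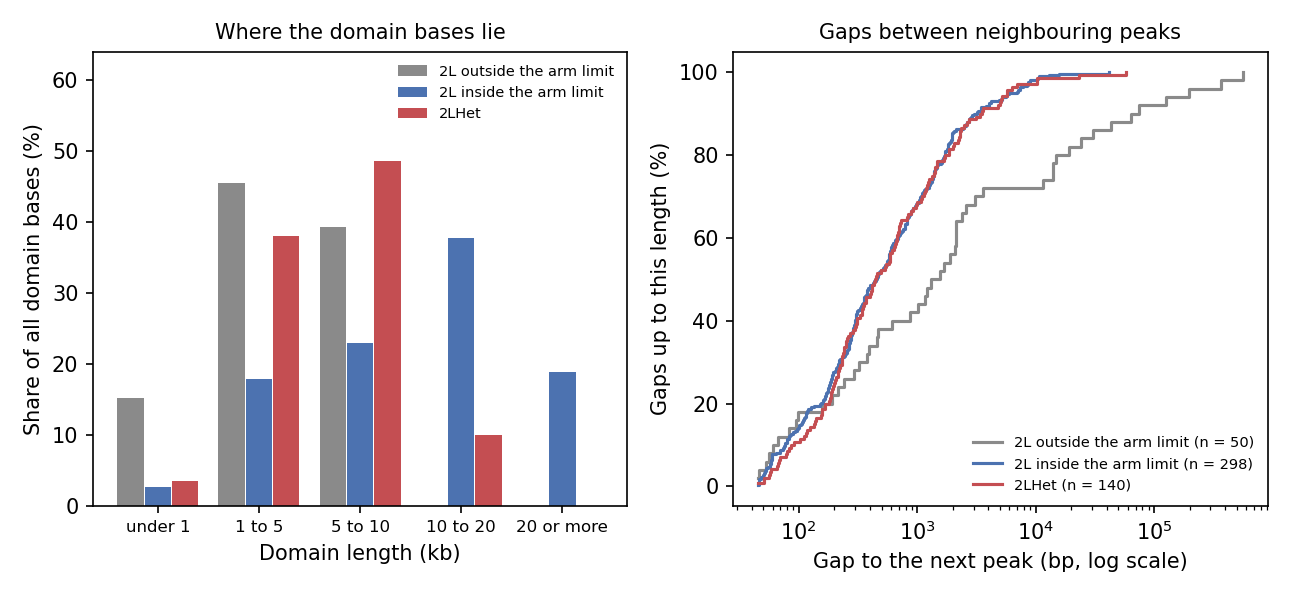
Left, the share of all domain bases by domain length in kb, for 2L outside the arm limit (grey), 2L inside it (blue) and 2LHet (red). Right, the cumulative share of gaps between neighbouring peaks by gap length in bp on a log axis. Over all peaks, the gap curves of 2LHet and of 2L inside the limit run together, while only the latter has domains of 20 kb or more.

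Wide peaks had high scores in each group. The rank correlation was 0.859 across the 299 peaks inside the limit, 0.868 across the 141 of 2LHet and 0.793 across the 51 outside the limit. It was much the same elsewhere in the list, at 0.804 on 2L below 20 Mb and 0.841 to 0.854 on 2RHet, 3LHet and 3RHet. These are descriptions of peaks from 1 list, which share libraries and caller and are not independent. How the authors defined the score is not stated. Narrow peaks, under 500 bp, made up 33.4% of peaks inside the limit and 7.33% of their covered bases. On 2LHet they made up 47.5% and 17.5%, and outside the limit 62.7% and 22.0%. Elsewhere, the share of narrow peaks was 48.1% on 2L below 20 Mb and 39.3% in the last 2985250 bp of 3L. It was 46.7% on 2RHet, 38.3% on 3LHet and 47.1% on 3RHet. The median width of the whole list was 503 bp.

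**Figure D5:**
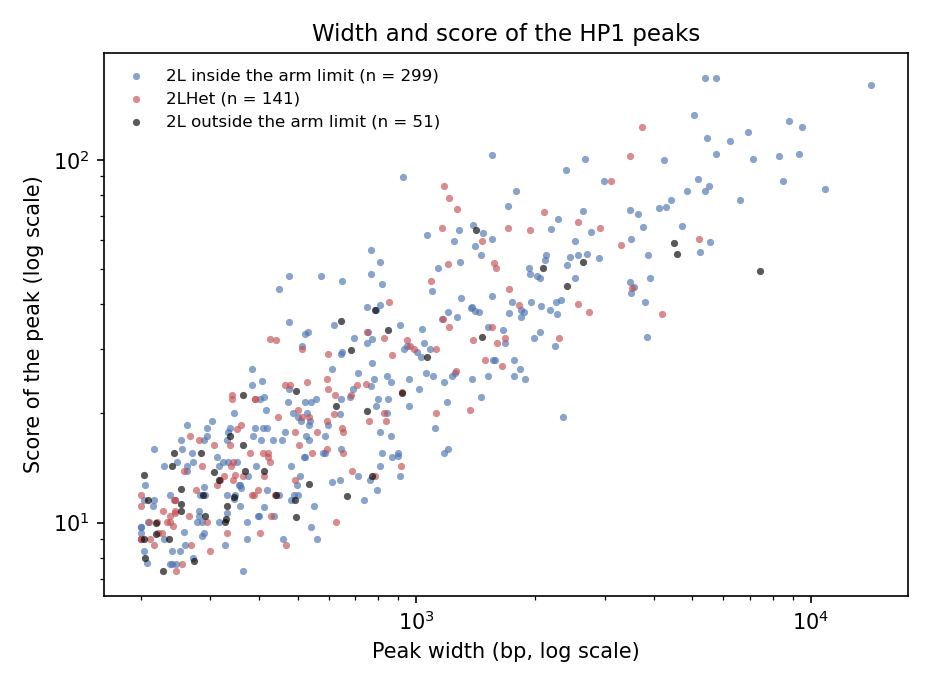
Width in bp against the authors' score for each of the 491 peaks, both on log axes, for 2L inside the arm limit (blue), 2LHet (red) and 2L outside the limit (black). Wide peaks score high in all groups. Widths above 7436 bp occur only inside the limit, where the widest peak has 14203 bp.

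Set beside other sequence of the list, 2L below 20 Mb had 135 peaks and 0.704% of bases covered, less than the 2.13% of 2L from 20 Mb to the limit. Of the covered bases from 20 Mb to the limit, 86.7% lay in the outer and the second stretch. The last 2985250 bp of 3L up to its last peak, a window of the same length as inner 2L, held 570 peaks and was 25.4% covered, against 350 and 16.6%. Its longest domain spanned 52143 bp and its domains of at least 10 kb held 43.8% of domain bases, against 51.6% on inner 2L. On 2RHet, 3LHet and 3RHet, domains of at least 10 kb held 37.2%, 47.6% and 29.8% of domain bases, above the 10.0% of 2LHet. Up to the end of their last peak, those sequences span 2490582 to 3277452 bp. On 2LHet this span is 365464 bp, and the share rests on 1 domain. Sequence lengths were not used. The covered shares of 2RHet, 3LHet and 3RHet were 31.9%, 42.8% and 31.3%, on both sides of the 34.0% of 2LHet. Their median gaps of 568.5, 507 and 539 bp were longer than its 446 bp.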

How the data were processed

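The authors deposited 1 list of HP1 peaks for the series. The build is FlyBase release 5 per the file headers, and the source column names MACS. BWA, MACS2 and CASAVA (1.7.0.2, also 1.7.0.3) are listed in the submitters' processing notes. No source states the parameters, the threshold, whether replicates were pooled or how reads from repeats were placed. The authors' score, whose definition is not stated, was used only to rank, describe and filter peaks. Per the labels' protocols, cross-linking took 15 min in 1.8% formaldehyde.

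Starts were read as counting from 0. The end of the last peak was taken as the end of 2L and of 2LHet, and likewise of 3L, 2RHet, 3LHet and 3RHet. Covered bases, gaps, domains (gaps of at most 1 kb) and chains (gaps under 5 kb) were computed with Python 3.11.15 and pandas 2.3.3. Covered bases, gaps, domains and the arm limit were checked on 20 simulated lists and returned the known answer in 20. Only the places of the sparse outer peaks varied between these lists, and chains were not checked. The arm limit is the outermost 100 kb bin from which every bin is at least 10% covered. Regions named were the first and last peak, the 5 highest scores, widest peaks, longest domains and longest gaps of each sequence, and the chains outside the limit. The split of 2LHet at gaps of 20 kb, the 3 equal parts of the 2L block and the stretches joined up to 50 kb were added after seeing the values. Members and measures were chosen with earlier results of these data known. The gene table at hand is for release 6, so no gene or sequence was placed on these coordinates. Alternatives were other score limits, joining distances, bin settings and removal of the widest peaks.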

Additional observations from a re-analysis of the deposited data

How the results depend on the processing

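The arm limit stayed between 22.1 and 22.2 Mb under bins of 50 kb (22.15 Mb), a required coverage of 20% and a score of at least the list median (22.2 Mb each). With that score limit, 187 peaks on inner 2L and 61 on 2LHet were left, covering 14.3% and 24.8%. At the upper quartile score, 116 and 29 were left, covering 11.9% and 17.3%. The coverage at the upper quartile was added after seeing the data. Merging neighbours within 1 kb gave 125 and 45, and placing peaks by their start kept 350. Without the 10 widest members of each sequence, coverage was 13.6% and 24.4%. The median domain inside the limit was 1560 bp with a join of 0.5 kb and 6947 bp with 2 kb, against 1494 and 5151 bp on 2LHet. At the median score it was 3602 and 1715 bp, and the median gap 836 and 1617.5 bp. The share of domain bases in domains of at least 10 kb was higher inside the limit under each of these score limits and joins, at 31.4% to 88.0% against 0 to 49.1% on 2LHet.

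The dense block depended most on the settings. Its largest chain held 7 peaks with a join of 2 kb, 14 with 10 kb and 26 with 50 kb, the last added after seeing the data. At the median score the largest chain held 2 peaks and was another one, from 20104476 to 20117287. The reasons for these shifts lie in the construction of each setting, which drops or joins peaks. No paired analysis was possible because the list names no replicate, and for the same reason no replicate could be left out. Depth is unknown, so its limit on the calls cannot be given.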
